A study of Mus musculus with 8 samples.

Results

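Chaperone and co-chaperone mRNAs were followed through RNA immunoprecipitation (IP) from mouse embryonic stem (ES) cells. The members were all genes whose name on the array marks them as a heat shock protein (Hspa, Hspb, Hspd, Hspe or Hsp90), a J protein (Dnaja, Dnajb or Dnajc), a subunit of the CCT chaperonin (Tcp1 and Cct2 to Cct8, with Cct6a and Cct6b) or a BAG protein, together with Stip1, Ahsa1 and St13. This gave 78 of the 27949 gene names on the array, measured by 149 of its 41174 probes, and the probe with the highest mean signal over the 8 arrays stood for each gene. A gene was tested if each array of some group read it well above background; 72 of the 78 met this, among 14745 genes in all, and 63 did so on all 8 arrays. The name pattern also took in Hspbap1, whose product is named for binding a small heat shock protein and which is no chaperone by name.

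The study asked which RNA species the germ-cell RNA-binding protein DAZL binds. The 1-colour arrays form these groups: 3 GFP IPs, 2 IPs of the poly(A) binding protein PABP1, and 3 inputs that saw no antibody. All 8 came from Dazl-GFP, a re-derived transgenic mouse ES line, grown on γ-irradiated feeder fibroblasts with 15% serum, leukemia inhibitory factor and the 2i inhibitors PD0325901 (against MEK) and CHIR99021 (against GSK3β). The IPs were native, that is, without crosslinking, and RNA was taken up in TRIZOL. A control antibody was not analysed here. The labels leave unstated whether GFP is fused to DAZL or is a reporter, and whether a group's arrays are from separate cultures. The p-values thus measure only the spread between these samples, and that spread may be technical.

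Chaperones keep other proteins folded and soluble. HSP70 proteins bind exposed stretches of a client and release them in a cycle of ATP hydrolysis. J proteins bring clients to HSP70 and start that hydrolysis, and BAG proteins help HSP70 let go. HSP90 finishes the folding of kinases, receptors and other clients that HSP70 passes on, with Stip1 bridging the pair. The chaperonins CCT in the cytosol and HSP60 with its lid HSP10 in mitochondria enclose a client in a barrel, and small heat shock proteins hold unfolded proteins until HSP70 takes them up. ES cells make much protein for division and express many of these genes without stress.

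Values are log2 signal relative to the array's 75th percentile, so they compare an mRNA's share of 1 RNA sample with its share of another, and a level is never set against that of another gene. Differences carry limma's standard error (SE) and a p adjusted by Benjamini-Hochberg over all 14745 genes, and "higher", "lower", "rose" and "fell" without further words mean an adjusted p under 0.05. Between 41.5% and 52.6% of the spots on an array were well above background. Dazl itself differed by 3.81 ± 0.21 between GFP IP and input and by −1.70 ± 0.23 between PABP1 IP and input, while Pabpc1 passed in neither (−0.86 ± 0.61 and 0.22 ± 0.68). The 9 ES cell markers on the array summed to 1470 to 1990 in the GFP IPs, 2030 to 3930 in the PABP1 IPs and 2200 to 4180 in the inputs, in units of the array's 75th percentile. Gene by gene, 5 of these 9 were higher and 2 lower with GFP than in input, 4 higher and 1 lower with PABP1 than in input, and 4 higher and 3 lower with GFP than with PABP1. Of all genes, 21.5% were higher and 43.3% lower, 34.3% and 25.3%, and 23.9% and 47.4% in these comparisons. The 18 markers of feeder fibroblasts summed to 134 to 194, 416 to 416 and 282 to 384 in the same 3 groups, and 16 of the 18 were above background on all inputs. In bulk lysates, fewer cells of a type, less RNA per cell and, in the IPs, less of that RNA recovered cannot be told apart.

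Most chaperone mRNAs differed between the samples, in both directions, and their median lay close to that of all genes. With GFP, 15 of 72 members (20.8%) were higher than in input, against 21.5% of all genes, and 35 (48.6%) were lower, against 43.3%. With PABP1, 30 members (41.7%) were higher than in input, against 34.3% of all genes, and 15 (20.8%) were lower, against 25.3%. Between the IPs, 10 members (13.9%) were higher with GFP, against 23.9% of all genes, and 37 (51.4%) were lower, against 47.4%. The members' median differences of −0.46, 0.34 and −0.59 lay within 0.1 of those of all tested genes, which were −0.51, 0.24 and −0.67. Both IPs were set against the same 3 inputs. Single members ran from −2.04 to 4.01 for GFP over input, from −2.05 to 2.94 for PABP1 over input and from −3.10 to 2.72 for GFP over PABP1. Among the 63 members above background on all arrays, 11 were higher and 31 lower with GFP than in input. With PABP1, 25 of these were higher and 15 lower than in input, and between the IPs 9 were higher and 32 lower with GFP. Of the 11387 genes above background on all arrays, 2562 were higher and 5404 lower with GFP than in input. With PABP1, 4150 of these genes were higher and 3208 lower than in input, and between the IPs 2858 were higher and 5613 lower with GFP.

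**Figure D1:**
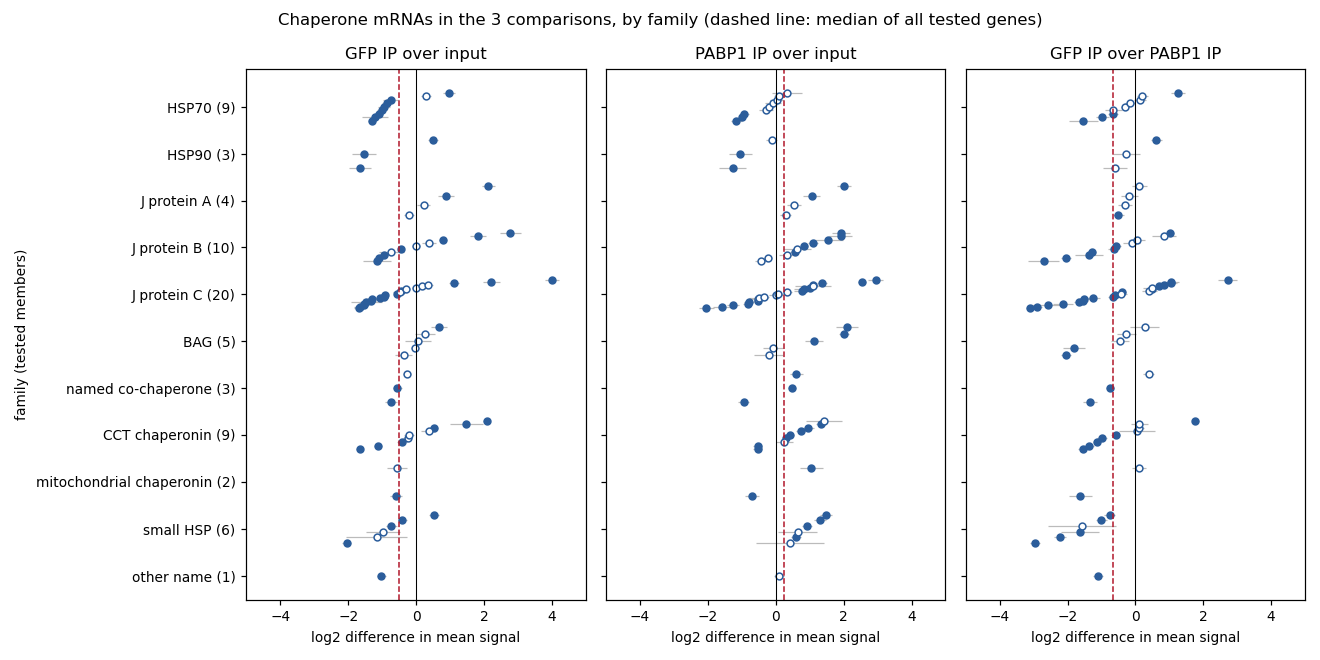
Log2 difference in mean signal of the 72 tested chaperone genes in the 3 comparisons, grouped by family (tested members in brackets). Filled points have an adjusted p under 0.05 and open points do not, grey bars are SE, the solid line is 0 and the dashed line is the median of all tested genes (−0.51, 0.24 and −0.67 from left to right). Points of most families lie on both sides of the dashed line, and the highest point in the left panel is Dnajc12 at 4.01.

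The median gene was itself displaced, and the split between higher and lower calls depended on how arrays were scaled. Of the members called between GFP IP and input, 30.0% were higher, against 64.7% when arrays were scaled to their medians and 55.8% when each difference was taken from the median gene. For PABP1 IP over input the share was 66.7%, against 51.2% relative to the median gene, and for GFP over PABP1 IP it was 21.3%, against 53.5%. The arrays lay on 2 slides that each held all 3 groups. With slide as a block, 17 members were higher and 41 lower for GFP over input, 37 and 21 for PABP1 over input, and 13 and 43 for GFP over PABP1. Slide 1 alone gave 10 and 32, 27 and 13, and 9 and 35, and slide 2 alone gave 12 and 25, 24 and 11, and 10 and 31. Each slide holds 4 arrays, so these fits have 1 residual degree of freedom, and an arm of 1 array is assumed to vary like the others. All 50, 45 and 47 members called in the 3 comparisons stayed called with the slide block.

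Of 9 tested HSP70 genes, 7 were lower with GFP than in input, where 43.3% of all genes were lower, 1 was higher and 1 did not pass. Hspa1l, among the 7, was not well above background in either group. Scaling to array medians left 1 lower and 2 higher, and relative to the median gene 3 were lower and 2 higher. With PABP1, 3 were lower than in input, against 25.3% of all genes, 0 were higher, against 34.3%, and 6 did not pass. Hspa5, the HSP70 of the endoplasmic reticulum (ER), read 4.89, 5.05 and 5.03 in the GFP IPs, 4.85 and 4.85 in the PABP1 IPs, and 5.71, 6.15 and 6.15 in the inputs. Every IP was below every input, by −1.01 ± 0.15 with GFP (adjusted p = 0.000859) and by −1.16 ± 0.17 with PABP1 (adjusted p = 0.000811), and the IPs did not differ by the test (0.14 ± 0.17, adjusted p = 0.458).

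The cytosolic and mitochondrial HSP70 mRNAs named next were chosen after their values were seen. Hspa8, the constitutive cytosolic HSP70, was lower with GFP than in input (−0.94 ± 0.18) and differed by 0.04 ± 0.20 with PABP1, but a second, dimmer probe for it read 0.69 and 1.97. Hspa9a, an older name of Hspa9, which encodes the HSP70 that pulls proteins into mitochondria, fell by 1.08 ± 0.12 with GFP and by 0.92 ± 0.14 with PABP1, and a second probe above background on all arrays gave −0.29 and −0.23. Hspa4, an HSP110-type exchange factor that reloads HSP70 with ATP, fell by 1.30 ± 0.11 and 1.00 ± 0.12, and its other 2 probes above background gave −1.66 and −1.68 with GFP and −2.12 and −2.05 with PABP1. Hspa1a, the classical heat-inducible form, did not pass in any comparison (0.30 ± 0.14, 0.11 ± 0.16 and 0.20 ± 0.16), and its near-identical neighbour Hspa1b can share its probes.

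Hspa2, an HSP70 best known from spermatocytes, was the exception. It read −1.35, −1.71 and −1.46 in the GFP IPs, −2.82 and −2.70 in the PABP1 IPs, and −2.56, −2.71 and −2.16 in the inputs, of which 2 were well above background. The GFP IPs stood above all others, by 0.97 ± 0.18 over input (adjusted p = 0.00249) and by 1.25 ± 0.20 over PABP1 IP (adjusted p = 0.00102). Its second probe gave 1.12 and 1.45.

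The 3 HSP90 genes divided. Hsp90aa1, the stress-inducible cytosolic form, read 7.32, 7.82 and 6.92 in the GFP IPs, 8.18 and 7.72 in the PABP1 IPs, and 9.34, 9.18 and 8.49 in the inputs. All IPs were below all inputs, while the IPs overlapped with each other. Their difference, −0.60, did not pass, but passed with the slide block (−0.49, adjusted p = 0.0209) and in the other direction under quantile normalization (0.82, adjusted p = 0.0254). The difference was −1.65 ± 0.31 with GFP (adjusted p = 0.00270), which is 3.14-fold lower. It was −1.05 ± 0.34 with PABP1 (adjusted p = 0.0322). The PABP1 call was lost without Input 1 (−0.89), Input 2 (−0.97), PABP1 IP 1 (−1.29), PABP1 IP 2 (−0.82) or GFP IP 1 (−1.05), and slide 2 alone gave −0.77 (adjusted p = 0.0845).

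Hsp90ab1, the constitutive cytosolic form, was instead 1.40-fold higher with GFP than in input (0.49 ± 0.15, adjusted p = 0.0215) and 1.53-fold higher than with PABP1 (0.61 ± 0.16, adjusted p = 0.0121), and its second probe gave 1.28 and 1.04. The input comparison lost its call without Input 2 (0.51) or GFP IP 1 (0.45), and the PABP1 IP comparison without PABP1 IP 2 (0.59). Its −0.12 ± 0.16 for PABP1 over input did not pass, but did under quantile normalization with and without normexp (−0.87 in both). Hsp90b1, the HSP90 of the ER, read 6.35, 5.73 and 6.45 with GFP, 6.0 and 6.89 with PABP1, and 7.33, 7.47 and 8.34 in input. The IPs lay below the inputs, by −1.53 ± 0.36 (adjusted p = 0.00785) and −1.27 ± 0.40 (adjusted p = 0.0293), and a second probe gave −2.47 and −3.76. The PABP1 call was lost without Input 3 (−0.96) or PABP1 IP 1 (−0.82), and the GFP call was lost under quantile normalization (−1.05, adjusted p = 0.0619) and median scaling (−1.0, adjusted p = 0.112).

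Co-chaperones of HSP90 were mixed as well. Stip1, the HSP70 to HSP90 adaptor, fell by 0.55 ± 0.14 with GFP and by 0.94 ± 0.16 with PABP1. Ahsa1, which speeds the HSP90 ATPase, was lower with GFP than in input (−0.74 ± 0.18) and lower than with PABP1 (−1.34 ± 0.20). St13, an HSP70 partner, was lower with GFP than with PABP1 (−0.75 ± 0.12) and read −0.27 ± 0.11 against input, where it did not pass except with the slide block (−0.31, adjusted p = 0.0123) or among genes above background on all arrays (−0.27, adjusted p = 0.0482). Under quantile normalization, the Stip1 and Ahsa1 differences from input with GFP shrank to −0.26 and −0.13 and lost their calls, and between the IPs Ahsa1 came to 0.00 and St13 to 0.09. Ahsa1 and St13 also stood 0.61 ± 0.20 and 0.48 ± 0.12 above input with PABP1, but quantile normalization turned these to −0.13 and −0.02. The Ahsa1 call with PABP1 was lost when any of 6 arrays was left out: 0.62 without Input 2, 0.45 without Input 3, 0.43 without PABP1 IP 1, and 0.61 without each of the 3 GFP IPs. The St13 call with PABP1 was lost without PABP1 IP 2 (0.37), and its other probes gave 0.50 and 1.64 over input with GFP.

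J proteins held the highest difference in each comparison. Of 34 tested, 8 were higher and 16 lower with GFP than in input, 15 were higher and 6 lower with PABP1 than in input, and 7 were higher and 18 lower with GFP than with PABP1. Of all genes, 21.5% were higher and 43.3% lower, 34.3% and 25.3%, and 23.9% and 47.4% in these comparisons. Relative to the median gene these became 14 and 10, 12 and 10, and 12 and 10. The counts include members that the IPs alone (Dnaja4 and Dnajb9) or the PABP1 IPs alone (Dnajb13 and Dnajb3) had admitted to the test. The calls of Dnaja4 and Dnajb9 over input, and those of Dnajb13 and Dnajb3 against PABP1, are thus no support. Dnajc12 encodes a J protein known to assist aromatic amino acid hydroxylases. Its signal was 2.60, 2.67 and 2.36 in the GFP IPs, 1.73 and 1.23 in the PABP1 IPs, and −1.26, −1.33 and −1.79 in the inputs. The 3 groups did not overlap, with GFP on top. Dnajc12 was 16.1-fold higher with GFP than in input (log2 4.01 ± 0.20, adjusted p = 1.81e-05), 7.69-fold higher with PABP1 than in input (2.94 ± 0.23, adjusted p = 5.53e-05), and 2.09-fold higher with GFP than with PABP1 (1.06 ± 0.23, adjusted p = 0.00446). The array held 1 probe for it.

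Dnajb9 encodes ERdj4, an ER J protein that the unfolded protein response induces. It read 0.29, 0.07 and 0.45 with GFP, −0.53 and −0.64 with PABP1, and −3.16, −2.50 and −1.83 in input, where 2 of 3 arrays were well above background, so that it was admitted to the test through the IPs. All IPs exceeded all inputs, with differences of 2.77 with GFP and 1.91 with PABP1. These are given with no test, since the IPs alone had admitted the gene. Its other probes gave 3.31 and 1.61 with GFP and 2.61 and 1.21 with PABP1.

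Dnajb6, which keeps aggregation-prone proteins soluble, read 3.03, 3.35 and 2.73 with GFP, 3.40 and 2.89 with PABP1, and 1.44, 1.30 and 0.90 in input. The IPs overlapped and both exceeded input, by 1.82 ± 0.23 (adjusted p = 0.000448) and 1.93 ± 0.26 (adjusted p = 0.000587). A second probe for Dnajb6 gave 1.75 and 1.72, while 1 more, also above background on all arrays, gave −0.70 and −0.67, so the probes of this gene disagree in direction.

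Dnajc6 was high with GFP and not with PABP1. It encodes auxilin, which recruits HSP70 to strip clathrin from vesicles. The GFP IPs read 1.43, 1.00 and 1.42, the PABP1 IPs −1.78 and −1.09, and the inputs −1.07, −1.20 and −0.54. GFP stood above both other groups, which overlapped. The difference was 2.22 ± 0.25 over input (adjusted p = 0.000282) and 2.72 ± 0.28 over PABP1 IP (adjusted p = 0.000126), against −0.50 ± 0.28 for PABP1 IP over input (adjusted p = 0.170), which passed with the slide block (−0.59, adjusted p = 0.00177).

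The ER J proteins Dnajb11 and Dnajc10 were also highest with GFP. Dnajb11, or ERdj3, a partner of Hspa5, read 6.20, 6.23 and 6.10 with GFP, 5.20 and 5.08 with PABP1, and 5.42, 5.40 and 5.29 in input. It was higher with GFP than in input (0.80 ± 0.11, adjusted p = 0.000530) and than with PABP1 (1.03 ± 0.12, adjusted p = 0.000194). Dnajc10, or ERdj5, which reduces disulfide bonds of proteins bound for degradation, read 2.50, 2.90 and 2.51 with GFP, 1.63 and 1.54 with PABP1, and 1.52, 1.67 and 1.40 in input. GFP was above the other groups by 1.11 ± 0.15 and 1.05 ± 0.17, and the other 3 Dnajc10 probes gave 0.46, 2.42 and 0.93 over input. Some other J proteins of the ER membrane, named after their values were seen, were lower with GFP than with PABP1. These were Dnajb12 (−0.64 ± 0.17), Dnajc14 (−0.65 ± 0.17), Dnajc16 (−0.39 ± 0.11) and Dnajc18 (−1.66 ± 0.14), against −0.67 for the median gene. Dnajc1, also of the ER membrane, did not pass there (0.41 ± 0.22, adjusted p = 0.123). The ER J protein Dnajc3 was higher with GFP (0.70 ± 0.25, adjusted p = 0.0362), and its other probes gave 0.63, 1.84 and −1.37. Another Dnajc16 probe, above background on 6 arrays, gave 2.17.

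**Figure D2:**
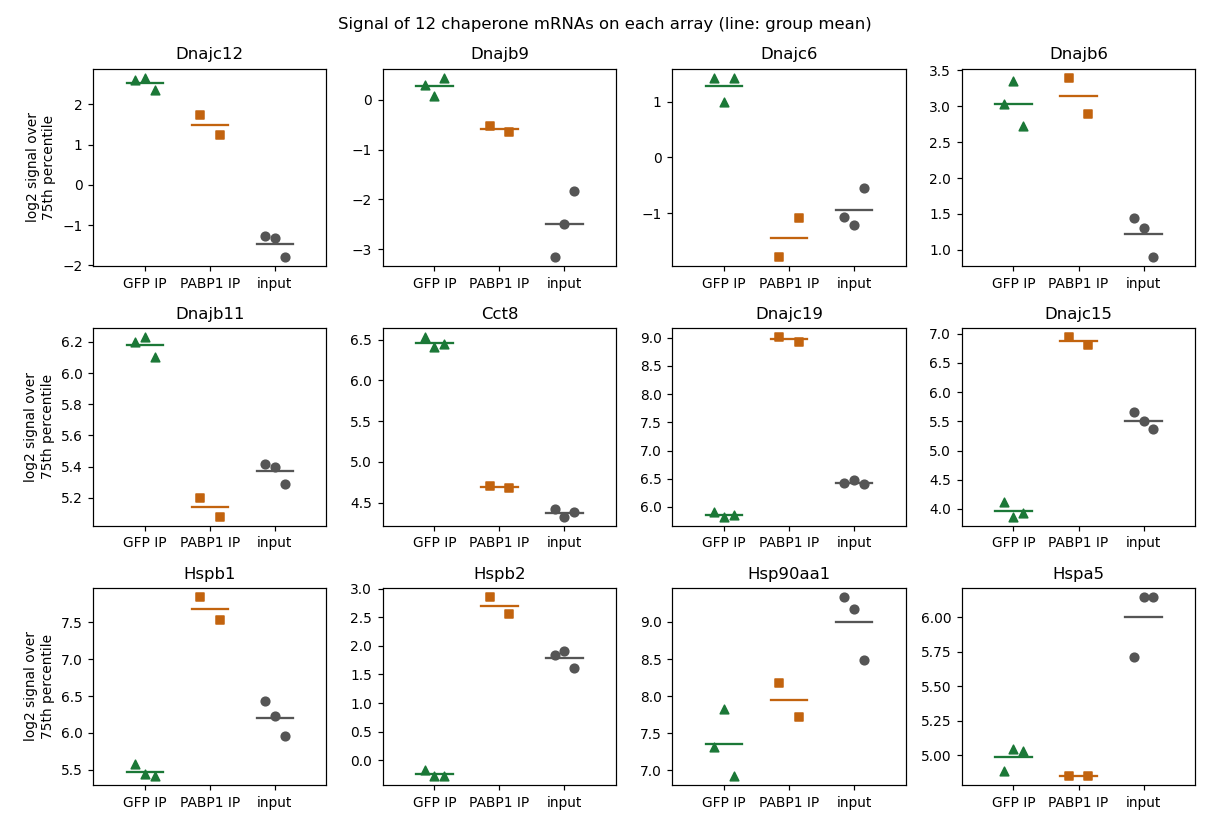
Log2 signal relative to the array's 75th percentile on each of the 8 arrays for 12 chaperone genes, with GFP IPs as triangles, PABP1 IPs as squares, inputs as circles and a line at each group mean; vertical axes differ between panels. Dnajc12 and Dnajb9 lie above input in both IPs, Dnajc6 and Cct8 stand high with GFP, Dnajc19, Dnajc15, Hspb1 and Hspb2 run highest with PABP1 and lowest with GFP, and Hsp90aa1 and Hspa5 lie below input in both IPs.

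Dnajc19 and Dnajc15, J proteins of mitochondria, showed the opposite order. Dnajc19, a part of the motor that imports proteins across the inner membrane, read 5.91, 5.83 and 5.86 with GFP, 9.01 and 8.93 with PABP1, and 6.42, 6.47 and 6.41 in input. The groups were fully apart, with PABP1 on top and GFP at the bottom. Dnajc19 was 8.57-fold lower with GFP than with PABP1 (−3.10 ± 0.11, adjusted p = 9.32e-06), 5.80-fold higher with PABP1 than in input (2.54 ± 0.11, adjusted p = 1.49e-05) and lower with GFP than in input (−0.56 ± 0.10, adjusted p = 0.00189). Its other 2 probes were above background on 2 and 0 arrays, and averaging all 3 brought PABP1 IP over input to 0.64 (adjusted p = 0.106).

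Dnajc15, which sits beside Dnajc19 in function at the inner membrane, read 4.12, 3.87 and 3.93 with GFP, 6.94 and 6.81 with PABP1, and 5.66, 5.50 and 5.36 in input. Again no groups overlapped. The differences were −1.54 ± 0.13 for GFP over input (adjusted p = 8.16e-05), 1.37 ± 0.15 for PABP1 over input (adjusted p = 0.000198) and −2.90 ± 0.15 for GFP over PABP1 (adjusted p = 9.49e-06).

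Another set of J protein mRNAs lay below input in both IPs. Dnajc1, an ER membrane J protein that can touch the ribosome, read 1.10, 1.11 and 1.32 with GFP, 0.43 and 1.10 with PABP1, and 2.81, 2.68 and 2.96 in input. Both IPs were below every input, by −1.64 ± 0.19 (adjusted p = 0.000313) and −2.05 ± 0.22 (adjusted p = 0.000187), and the 2 other probes above background on at least 7 arrays gave −1.71 and −0.56 with GFP and −2.18 and −1.18 with PABP1. Dnajc2, a ribosome-bound J protein that meets nascent chains, read 1.46, 2.01 and 1.88 with GFP, 2.27 and 2.16 with PABP1, and 3.40, 3.55 and 3.43 in input. The IPs were again below all inputs, by −1.68 ± 0.16 and −1.25 ± 0.18. Dnajc13, an endosomal J protein, read −1.65, −1.13 and −1.65 with GFP, −1.79 and −2.17 with PABP1, and −0.12, −0.29 and −0.83 in input, and differed by −1.07 ± 0.24 and −1.57 ± 0.27.

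Some J protein mRNAs were dim, among them forms best known from testis. Dnajb13, which is built into sperm flagella, read −3.36, −3.23 and −4.71 with GFP (2 of 3 arrays above background), −0.80 and −1.34 with PABP1, and −2.67, −2.32 and −2.85 in input (2 of 3). PABP1 stood above the other groups, and GFP over PABP1 came to −2.70. The gene was admitted to the test through the PABP1 IPs alone, so this is given with no test. Dnajc5g read −3.09, −2.64 and −3.75 with GFP, −0.04 and −1.17 with PABP1, and −0.92, −2.14 and −2.06 in input, and was lower with GFP than with PABP1 (−2.56 ± 0.52, adjusted p = 0.00335), though the mean of its probes gave −1.03 (adjusted p = 0.0910). Dnaja4 was well above background on all 5 IP arrays and on 0 inputs, so only a bound holds, given with no test since the IPs alone admitted it. It was at least 1.42-fold higher with GFP than in input and at least 1.31-fold higher with PABP1 than in input, the dim group being set at the lowest signal called above background. The fitted differences of 2.13 and 2.01 shrank to 0.64 and 0.85 when averaged with a second probe, above background on 0 arrays. The normexp correction followed by quantile normalization brought the PABP1 value to 0.16.

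The 8 genes for the subunits of the CCT ring, which folds actin and tubulin and holds 1 copy of each subunit per ring, did not move as a block. With Cct6b, a testis form of the sixth subunit, 3 of 9 genes were higher and 3 lower with GFP than in input, 5 were higher and 2 lower with PABP1 than in input, and 1 was higher and 5 lower with GFP than with PABP1. The shares of all genes in these comparisons were 21.5% and 43.3%, 34.3% and 25.3%, and 23.9% and 47.4%. Quantile normalization changed the counts to 4 and 2, 3 and 2, and 4 and 3. Cct8 read 6.53, 6.41 and 6.45 in the GFP IPs, 4.71 and 4.68 in the PABP1 IPs, and 4.42, 4.33 and 4.39 in the inputs. GFP was far above both other groups. Cct8 was 4.24-fold higher with GFP than in input (2.08 ± 0.10, adjusted p = 1.73e-05) and 3.41-fold higher than with PABP1 (1.77 ± 0.11, adjusted p = 1.55e-05), and quantile normalization widened both. Between PABP1 IP and input Cct8 differed by 0.31 ± 0.11, a value that lost its call without any 1 of the 8 arrays (0.29 to 0.33) and turned to −0.05 under quantile normalization.

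Cct5 took the other direction. It read 5.65, 5.67 and 5.50 with GFP, 6.80 and 6.67 with PABP1, and 7.35, 7.18 and 7.26 in input. The groups were apart, with GFP lowest. Cct5 was 3.15-fold lower with GFP than in input (−1.66 ± 0.11, adjusted p = 3.92e-05), and it read −0.53 ± 0.13 for PABP1 over input (adjusted p = 0.00898, and −0.46 with adjusted p = 0.0637 without PABP1 IP 2). Its difference between the IPs was −1.13 ± 0.13 and shrank to −0.08 (adjusted p = 0.557) under quantile normalization. Cct7 was also lower with GFP than in input (−1.11 ± 0.12), a call that median scaling ended (−0.57, adjusted p = 0.0549), and its difference between the IPs of −0.58 ± 0.13 turned to 0.69 under quantile normalization. Its −0.53 ± 0.13 for PABP1 over input lost its call without PABP1 IP 1 (−0.49).

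Tcp1, Cct3 and Cct4 were higher with PABP1 than in input (0.96 ± 0.17, 0.74 ± 0.15 and 1.34 ± 0.15) and lower with GFP than with PABP1 (−1.38 ± 0.17, −0.99 ± 0.15 and −1.55 ± 0.15). Cct3 shrank to −0.32 between the IPs relative to the median gene and lost its call. A second Tcp1 probe gave 2.10 and −2.41, but the second Cct4 probe, above background on the GFP arrays alone, gave 0.10 and 2.26. Tcp1 stood at −0.42 ± 0.15 against input with GFP, where it lost its call without GFP IP 1 (−0.42), GFP IP 3 (−0.35), either PABP1 IP (−0.42), Input 1 (−0.33) or Input 2 (−0.41), and became 0.11 with arrays scaled to their medians. Cct2 was higher with GFP than in input (0.52 ± 0.12), and a second probe gave 2.15. Its 0.41 ± 0.13 for PABP1 over input lost its call without Input 2 (0.37), PABP1 IP 1 (0.49), PABP1 IP 2 (0.33) or GFP IP 3 (0.41), and turned to −0.31 under quantile normalization. Cct6a differed by 1.48 ± 0.48 for GFP over input and 1.43 ± 0.53 for PABP1 over input, the first with an adjusted p of 0.0283 and the second with 0.0519. With the slide block both passed (1.11 and 1.24), while the GFP value did not pass at 1.31 without Input 1, 1.23 without Input 2, 1.23 without GFP IP 1 and 1.39 without GFP IP 3.

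**Figure D3:**
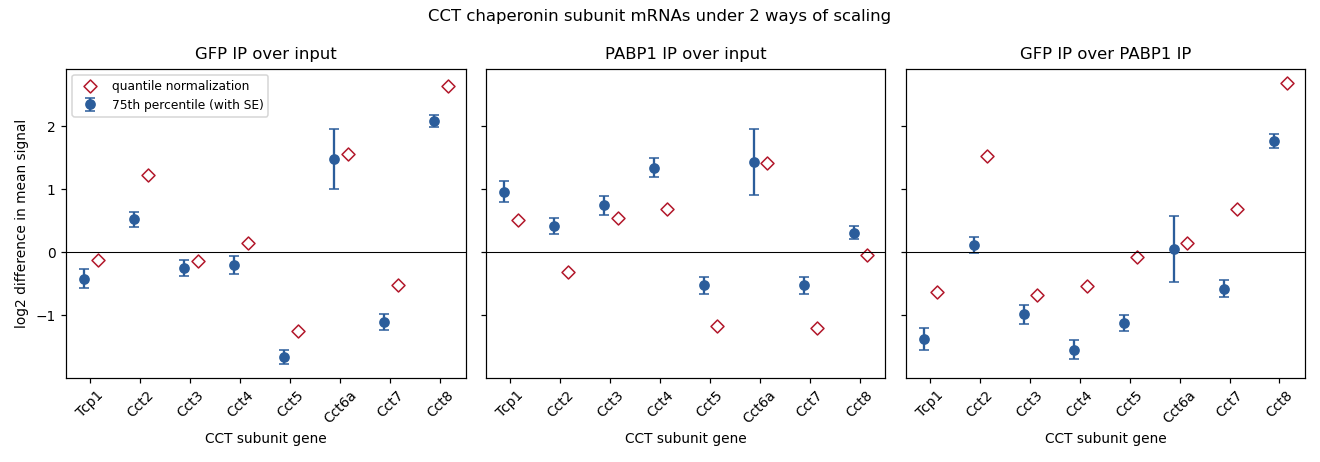
Log2 difference in mean signal of the 8 CCT subunit genes in the 3 comparisons. Filled circles use the 75th percentile scaling with SE bars, and open diamonds are quantile-normalized values. Cct8 (2.08) and Cct5 (−1.66) mark the ends in the left panel, and in the right panel Cct7 has a circle below 0 (−0.58) and a diamond above it (0.69).

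The mitochondrial chaperonin is made by Hspd1 (HSP60, the barrel) and Hspe1 (HSP10, the lid). These genes lie head to head on mouse chromosome 1, with RefSeq start sites 216 bases apart in assembly GRCm38.p6, and a further Hspd1 start lies inside Hspe1. The stretch between them is shown because it serves both genes in opposite directions and holds overlapping matches to the letters GAANNTTCNNGAA or their reverse complement TTCNNGAANNTTC, the pattern bound by heat shock factor, here in capitals. Both lines give chr1:55088044-55088091, read on the strand of the gene named.
Hspd1: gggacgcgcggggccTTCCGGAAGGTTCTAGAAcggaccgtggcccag
Hspe1: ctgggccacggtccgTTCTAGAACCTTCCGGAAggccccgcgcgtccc
The match lies 144 to 127 bases before the Hspd1 start outside Hspe1 and 89 to 72 bases before the Hspe1 start. Among the 64 members with a RefSeq promoter window (250 bases before to 50 after the start), 3 held this pattern on either strand (4.69%), namely Hspd1, Hspe1 and Dnajb6, against 179 of 27025 genes (0.662%). The Hspd1 and Hspe1 matches are the same stretch of DNA, counted for each gene. A match describes these letters only.

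The mRNAs of this gene pair parted in the PABP1 IP. Hspe1 read 6.52, 5.69 and 6.48 with GFP, 7.62 and 8.07 with PABP1, and 6.60, 6.52 and 7.26 in input. The PABP1 IPs lay above all other arrays. GFP and input overlapped across the slides but not within them, where each GFP IP was below each input. Hspe1 did not pass for GFP over input (−0.57, adjusted p = 0.133) and passed with the slide block (−0.79, adjusted p = 0.000518). Hspd1 read 7.11, 7.33 and 7.10 with GFP, 7.25 and 6.90 with PABP1, and 8.02, 7.87 and 7.43 in input. Here both IPs lay below the inputs and overlapped each other. For PABP1 over input the difference was 1.05 ± 0.34 for Hspe1 (adjusted p = 0.0296) and −0.70 ± 0.21 for Hspd1 (adjusted p = 0.0230), and with the slide block it was 0.94 and −0.64. The gap between the genes was not itself tested, a second Hspd1 probe gave 0.10, and quantile normalization brought Hspe1 to 0.24 (adjusted p = 0.627).

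Single arrays decided several of these calls. The Hspe1 call with PABP1 was lost without Input 1 (0.96), Input 2 (0.91) or PABP1 IP 2 (0.83), and stood at the threshold without PABP1 IP 1 (1.27). The Hspd1 call with PABP1 was lost without Input 1 (−0.58), Input 2 (−0.65) or PABP1 IP 2 (−0.52). With GFP, Hspd1 differed from input by −0.59 ± 0.19 and lost its call without GFP IP 1 (−0.56), GFP IP 3 (−0.55), Input 1 (−0.47) or Input 2 (−0.55); median scaling gave −0.06 and quantile normalization 0.01. Between the IPs, Hspe1 was lower with GFP (−1.62 ± 0.34, adjusted p = 0.00383), and quantile normalization brought this to −0.34 (adjusted p = 0.463).

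Of 6 tested small heat shock protein mRNAs, 0 were higher and 5 lower with GFP than with PABP1, where 47.4% of all genes were lower, and Hspb6 did not pass. The PABP1 IPs alone had admitted Hspb6 and Hspb7 to the test, so the calls of Hspb7 against PABP1 are no support. With GFP, 1 (the dim Hspb7) was higher and 3 lower than in input, against 21.5% and 43.3% of all genes. With PABP1, 4 were higher and 0 lower than in input, against 34.3% and 25.3% of all genes. Hspb7 is among these 4 and among the 5 lower between the IPs. No scaling turned a count between the IPs: 0 were higher and 2 to 5 lower under every scaling tried. Hspb1 (HSP27), which caps actin filaments and binds unfolded proteins, read 5.57, 5.44 and 5.41 with GFP, 7.85 and 7.53 with PABP1, and 6.43, 6.23 and 5.95 in input. The groups did not overlap. Hspb1 was 4.66-fold lower with GFP than with PABP1 (−2.22 ± 0.18, adjusted p = 4.03e-05), and differed from input by −0.73 ± 0.16 with GFP and 1.49 ± 0.18 with PABP1.

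Hspb2, a form best known from muscle, read −0.18, −0.28 and −0.28 with GFP, 2.86 and 2.55 with PABP1, and 1.84, 1.91 and 1.62 in input. Its groups were apart in the same order. It was 7.75-fold lower with GFP than with PABP1 (−2.95 ± 0.15, adjusted p = 9.70e-06) and 4.11-fold lower with GFP than in input (−2.04 ± 0.13, adjusted p = 3.54e-05), and its dimmer second probe gave −2.44 and −1.28. The feeder fibroblast markers ran in this order too. Of 18, 1 was higher and 14 lower with GFP than with PABP1, against 23.9% and 47.4% of all genes. Against input, 1 was higher and 13 lower with GFP, where 21.5% and 43.3% of all genes were. With PABP1, 9 were higher and 2 lower than in input, against 34.3% and 25.3% of all genes. The part of these markers in the small heat shock protein values was not tested.

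Of 5 BAG genes, 3 were higher and 0 lower with PABP1 than in input under each scaling tried. Of all genes, 34.3% were higher and 25.3% lower there. Bag3 and Bag5 did not pass. With GFP, 1 was higher and 0 lower than in input, against 21.5% and 43.3% of all genes. Bag1, an exchange factor that opens HSP70, read 2.68, 2.30 and 2.45 with GFP, 4.49 and 4.54 with PABP1, and 2.48, 2.42 and 2.61 in input. GFP and input overlapped, and PABP1 stood above both, by 2.01 ± 0.15 over input (adjusted p = 4.61e-05), and GFP over PABP1 was −2.04 ± 0.15 (adjusted p = 2.54e-05). Bag2, which keeps HSP70 clients from being ubiquitinated, read −0.72, −1.25 and −0.74 with GFP, 0.55 and 1.27 with PABP1, and −1.31, −1.51 and −0.71 in input. Its pattern was the same, with 2.09 ± 0.32 for PABP1 over input and −1.81 ± 0.32 for GFP over PABP1.

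The other BAG genes moved less. Bag4 was 1.13 ± 0.26 above input with PABP1 (0.97 and no longer called without PABP1 IP 2). It stood 0.67 ± 0.23 above input with GFP, where it lost its call without GFP IP 1 (0.52), GFP IP 3 (0.67), Input 1 (0.66) or Input 2 (0.52), and its second probe, above background on 0 inputs, gave 2.49 with GFP. Bag3, the partner of Hspb8 in selective autophagy, differed from input by 0.06 ± 0.39 with GFP and −0.21 ± 0.43 with PABP1. With the slide block these became −0.24 (adjusted p = 0.0372) and −0.36 (adjusted p = 0.0113), and both passed. Bag5 read −0.36 ± 0.25 and −0.08 ± 0.28, neither of which passed.

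Genes that work with these chaperones were counted from pathway lists, to be read against 21.5% of all genes higher and 43.3% lower for GFP over input, 34.3% and 25.3% for PABP1 over input, and 23.9% and 47.4% for GFP over PABP1. Of 15 ER folding genes, 5 were higher and 8 lower with GFP than with PABP1, and quantile normalization gave 7 and 2. Those highest with GFP against PABP1 included Pdia3, a disulfide isomerase (2.39 ± 0.15), its lectin partner gene Canx (2.15 ± 0.13) and Hyou1, an ER HSP110 relative (2.05 ± 0.20). Each was also higher than input with GFP (1.12, 1.12 and 0.69) and lower than input with PABP1 (−1.27, −1.03 and −1.36). Armet, now Manf, went the other way at −1.99 ± 0.19 between the IPs.

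Of 10 genes of mitochondrial folding and proteolysis, 0 were higher and 9 lower with GFP than in input, 2 higher and 6 lower with PABP1 than in input, and 0 higher and 6 lower with GFP than with PABP1. Scaling to array medians left 4 lower for GFP over input. The unfoldase gene Clpb differed by −1.64 ± 0.26, the protease gene Clpp by −1.60 ± 0.17 and Prss15, now Lonp1, by −1.57 ± 0.10 for GFP over input.

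Prefoldin hands actin and tubulin to CCT. Of 9 genes for prefoldin and CCT cofactors, 2 were higher and 4 lower with GFP than in input. With PABP1, 5 were higher and 1 lower than in input, and 3 were higher and 5 lower with GFP than with PABP1. The prefoldin subunits also split. Pfdn2 differed from input by 3.01 ± 0.12 with GFP and 1.27 ± 0.14 with PABP1, and Vbp1 by 2.59 ± 0.11 and 1.68 ± 0.12. Pfdn4 instead gave −0.70 ± 0.22 and 1.61 ± 0.25, and was lower with GFP than with PABP1 (−2.31 ± 0.25).

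Of 19 further HSP90 co-chaperone genes, 7 were higher and 9 lower with GFP than in input, 7 higher and 3 lower with PABP1 than in input, and 4 higher and 10 lower with GFP than with PABP1. Tomm34, an HSP70 and HSP90 cofactor of mitochondrial precursors, was higher with GFP than in input (2.45 ± 0.24) and than with PABP1 (2.56 ± 0.27). Unc45a, a myosin chaperone, fell by 1.67 ± 0.13 with GFP. Of the 6 heat shock factor and regulator genes, 2 were tested. Hsf1, the main heat shock factor, passed against input in neither IP (−0.74 ± 0.41 and 0.91 ± 0.46) and was lower with GFP than with PABP1 (−1.65 ± 0.46), and Hsbp1, which binds it, was higher with PABP1 than in input (2.19 ± 0.13) and lower with GFP than with PABP1 (−2.01 ± 0.13).

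A further 22 tested members, 21 of them above background on all arrays, are given by their counts. The exception, Dnajb3, was admitted to the test through the PABP1 IPs alone. Its calls against PABP1, which these counts include, are thus no support. With GFP, 1 was higher and 10 lower than in input, from −1.52 (Dnajc17) to 0.88 (Dnaja1). With PABP1, 8 were higher and 2 lower than in input, from −0.83 (Dnajc7) to 1.11 (Dnajc9). Between the IPs, 3 were higher and 14 lower with GFP, from −2.13 (Dnajc4) to 0.83 (Dnajc7). Of all genes, 21.5% were higher and 43.3% lower, 34.3% and 25.3%, and 23.9% and 47.4% in these comparisons.

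Some members stood near the limit of detection. Hspa12a, Hspa12b, Dnajb7, Dnajb8, Dnajc5b and Hspb3 were above background on all arrays of no group and were not tested. Hspb7 was not well above background on any input and was at least 1.23-fold higher with PABP1 than in input, while Hspa1l was not well above background on any GFP IP or input and was at least 1.69-fold lower with GFP than with PABP1. Both were admitted through the PABP1 IPs alone, so these bounds carry no test. Hspb6 was well above background on 0 GFP IPs, 2 PABP1 IPs and 1 input, and passed in no comparison.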

How the data were processed

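RNA from 3 GFP IPs, 2 PABP1 IPs and 3 inputs was measured on 1-colour Agilent arrays. Per the file headers, Feature Extraction 9.1.3.1 (protocol GE1-v5_95_Feb07) produced the deposited intensity of each spot, corrected for background. Flags for outlier spots, saturation and signal well above background, other values than brightness, were deposited beside them. A second deposited file holds the authors' mean intensity per group, scaled in a way that no source used here gives.

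Processed intensity was taken to log2, the 75th percentile of the array's 43379 probe spots was taken off, and replicate spots were averaged. Outlier flags removed 30 probes, and 0 spots were saturated. Differences were fitted with limma 3.58.1 (R 4.3.3, files read with the data.table package, version 1.17.8) over all 8 arrays, with 5 residual and 2.1 prior degrees of freedom, two-sided, with Benjamini-Hochberg adjustment over 14745 genes and a threshold of 0.05. On simulated arrays for GFP over input, on 14745 genes, 85% of genes changed by log2 2 and 44% of those changed by log2 1 were called. Far fewer genes were changed there than were called in the data (3163 higher and 6383 lower). The adjustment thus worked at another cutoff, and these shares are not the recovery in the data. The number of arrays limits the precision. Of the 78 members, 71 were matched to RefSeq genes (GRCm38.p6) by accession and 7 by symbol. Figures used matplotlib 3.10.9 in Python 3.11.15.

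The members, lists and tests were chosen with earlier results of these data known. Values on every array were to be given for the 6 highest and 6 lowest called members of each comparison; members of the HSP90, chaperonin, BAG and co-chaperone families, Dazl, Pabpc1, other probes, and up to 4 called genes of each pathway list could be named. Alternatives were other scalings (median, detected probes, quantile, the median gene), normexp with an offset of 50, other filters, the mean of a gene's probes, slide, replicate number, the 2 groups alone, each array left out, and the authors' table. The normexp correction was followed by quantile normalization, and the pair is called normexp below. The sign of a called member was shared by 23 of 28 other probes for GFP over input, 21 of 26 for PABP1 over input and 21 of 26 between the IPs. Protein features were not analysed here. The values of 1 gene that the naming rule chose are not reported here.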

Additional observations from a re-analysis of the deposited data

How the results depend on the processing

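Counts of chaperone members moved with scaling, the filter on dim probes and the slide block. For GFP over input, 15 higher became 24 relative to the median gene, and 35 lower became 12 with median scaling, 22 with quantile normalization, 19 relative to the median gene and 20 with normexp. For PABP1 over input, 15 lower became 9 with no filter on dim probes, 12 to 20 under the other scalings and 21 with the slide block. For GFP over PABP1, 10 higher became 16 with median scaling, 18 with quantile normalization or the percentile over detected probes, 23 relative to the median gene and 19 with normexp, and 37 lower became 24, 23, 20 and 23 with median, quantile, median-gene and normexp scaling. Leaving out 1 array gave 11 to 16 higher and 28 to 36 lower for GFP over input, 23 to 29 and 12 to 15 for PABP1 over input, and 8 to 11 and 30 to 39 for GFP over PABP1. The cause of the moves was not tested.

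Single genes turned as follows. For GFP over input, quantile normalization gave 0.01 and normexp 0.00 for Hspd1; median scaling gave 0.11 and the median gene 0.09 for Tcp1; the median gene gave 0.48 for Bag1; the slide block gave −0.24 for Bag3; and the mean of all probes gave 1.08 for Cct4 and 0.62 for St13. For PABP1 over input, quantile normalization and normexp gave −0.13 and −0.12 for Ahsa1, −0.31 and −0.30 for Cct2, −0.05 and −0.04 for Cct8, and −0.02 and −0.06 for St13. For GFP over PABP1, they gave 0.00 and 0.01 for Ahsa1, 0.69 and 0.74 for Cct7, 0.82 and 0.86 for Hsp90aa1, and 0.09 and 0.16 for St13; the median gene gave 0.09 for Cct7, and the mean of all probes 0.71 for Bag4 and 0.35 for Cct4. In the authors' deposited table, 22 of 26, 24 of 24 and 27 of 27 called members with a unique row had the same sign; for GFP over input, Stip1 was 0.00, Tcp1 0.18, Dnajb10 0.09 and Hspb8 0.13.

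Replicate numbers were not taken to pair the samples, since same-numbered arrays deviated together with correlations of −0.737 to 0.622, against 0.442 to 0.767 for arrays of the same slide. As a replicate block they gave 15 higher and 35 lower for GFP over input, 29 and 15 for PABP1 over input, and 9 and 35 for GFP over PABP1. Whether a difference between groups varied with the slide rests on arms of 1 or 2 arrays and therefore has little power, so sizes alone are given. Among members, Hspb6 had the largest gap in both comparisons with input. Slide 1 minus slide 2 was 3.69 for GFP over input and 3.22 for PABP1 over input. Hspb6 read −4.5 and −4.1 in Inputs 1 and 2, on slide 1, and −0.78 in Input 3, on slide 2. Its PABP1 over input came to 1.44 on slide 1 alone and −1.78 on slide 2 alone.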
